A study of Nicotiana tabacum with 60 samples.

Results

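Δ*psbJ* is a transplastomic tobacco (*Nicotiana tabacum*, Petit Havana) mutant in which an *aadA* cassette, the spectinomycin resistance marker, takes the place of the reading frame of *psbJ* in the chloroplast genome. It was compared with pRB8c, a transplastomic line that carries *aadA* with *psbJ* intact, so that both lines share the marker. A chloroplast gene was taken where 3 or more libraries of each kind held 10 or more of its reads, which gave 77 of the 78 genes in the tables. *matK* was left out, with 0 footprints in all 6 Ribo-seq libraries. Each line was read by Ribo-seq in 3 samples and by RNA-seq in 3 samples, so that 12 of the 60 libraries of the series were used. The plants were raised in Magenta boxes on MS medium with 3% sucrose, since the mutant cannot live from its own photosynthesis, and were taken at the stage of a young seedling. The mutant keeps a residual photosystem II (PSII) function and was included in the study to ask whether any loss of PSII function lowers the translation of *psbA*. The samples are called biological replicates, but no source used here gives whether they came from separate transplastomic lines, so each p-value reflects only how far these samples scatter.

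PSII is the complex of the thylakoid membrane that oxidizes water and reduces plastoquinone. Its core is built in modules around the D1 and D2 reaction centre proteins, with CP47 and CP43 as inner antennae, cytochrome *b*559 at the side and many small membrane proteins, among them PsbJ. Chloroplast genes are mostly transcribed in operons, and the output of a gene is known to be set in large part at translation, by nuclear-encoded proteins that bind individual transcripts. Ribo-seq counts the RNA fragments of about 20 to 39 nt that ribosomes protect and so measures translation output. Transcript accumulation was measured by RNA-seq of total RNA. Footprints over RNA stand for translation efficiency.

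The Ribo-seq libraries held 1334157 to 4471605 reads in chloroplast reading frames and the RNA-seq libraries 9687267 to 12643582, and the deepest Ribo-seq library was Δ*psbJ* replicate 1. The share of mapped reads from the chloroplast was 23.02% ± 3.52 (SD, n = 3) in Δ*psbJ* and 24.2% ± 2.85 (SD, n = 3) in pRB8c in Ribo-seq (two-sided exact permutation p = 0.5). It was 59.9% ± 2.03 and 59.8% ± 1.46 in RNA-seq (p = 1, exact permutation test, n = 3 each), and 3 against 3 samples cannot go below 0.1. Levels below are CPM (counts scaled to a common total of chloroplast reading-frame reads) after TMM normalization, a scaling that sets the bulk of the genes equal between libraries, so that every change is relative to the other chloroplast genes. The median log2 fold change over the 77 genes was 0.12 in footprints, 0.19 in RNA and 0.00 in footprints over RNA. Fewer chloroplast transcripts per cell and fewer chloroplasts cannot be told apart in such whole-tissue samples.

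The scaling matters in the RNA. The *rbcL* and *psbA* transcripts together took 61.4% to 64.3% of the reading-frame reads in pRB8c and 54.1% to 56.6% in Δ*psbJ* (exact permutation p = 0.1, the smallest possible). Scaled by library sizes alone, the RNA log2 fold change of the median gene was 0.84 in place of 0.19, which is a shift of 0.64, and that of footprints over RNA shifted by −0.54. Footprints moved by 0.11. RNA decreases and higher translation efficiencies below are therefore given with their value under that scaling where the sign or the call depends on it.

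Deletion of *psbJ* was seen in every mutant library. The gene (Ribo-seq window 66378 to 66460 on the minus strand of the plastid genome the authors mapped to) had 2014, 2094 and 2122 footprint CPM in pRB8c replicates 1 to 3 and 14.0, 31.3 and 32.3 in Δ*psbJ*. Its RNA stood at 2520, 2582 and 2597 in pRB8c and at 7.48, 7.40 and 6.68 in the mutant. The groups were far apart in both readouts, and the residue amounted to 0.676%, 1.51% and 1.56% of the mean control footprints and 0.260% to 0.291% of the mean control RNA. In reads, these residues were 64, 44 and 70 footprints and 99, 109 and 102 RNA reads. The log2 fold change was −6.39 ± 0.32 (SE) in footprints (edgeR adjusted p = 1.2e-08) and −8.48 ± 0.22 in RNA (edgeR adjusted p = 4.5e-120). *psbJ* was the only gene changed at least 4-fold at an adjusted p of 0.01 or less, in footprints, in RNA and in footprints over RNA (1.3% of the genes tested in each). A ratio of residual reads has no use as a translation efficiency, and *psbJ* is left out of what is said of footprints over RNA below.

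*psbJ* closes the operon *psbE*-*psbF*-*psbL*-*psbJ*, and the other 3 genes showed no called change in translation output. *psbE* and *psbF* encode the α and β subunits of cytochrome *b*559, and *psbL* encodes a small subunit at the dimer face of PSII. *psbE* footprints were 5729, 5682 and 5282 in pRB8c and 4729, 3452 and 3964 in Δ*psbJ*. All 3 mutant libraries lay below the control, yet the log2 fold change of −0.46 ± 0.17 (SE) did not pass the threshold (edgeR adjusted p = 0.0558). *psbE* RNA was 7444, 7673 and 8359 in pRB8c against 5793, 4109 and 4758 in the mutant. It fell by 0.68 on the log2 scale (SE 0.11, edgeR adjusted p = 2.2e-08), but was −0.03 with library sizes alone (adjusted p = 0.769).

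*psbF* footprints overlapped between the lines, with 1387, 1244 and 1095 in pRB8c and 1616, 1170 and 1266 in Δ*psbJ* (log2 fold change 0.12 ± 0.19 SE, edgeR adjusted p = 0.62). *psbL* footprints were 1169, 1075 and 1153 against 1086, 821 and 892, and also overlapped (−0.28 ± 0.17 SE, adjusted p = 0.252). RNA of *psbF* (−0.27 ± 0.18 SE) and *psbL* (0.27 ± 0.16 SE) did not pass the test with TMM either. None of these 3 genes passed the test in translation efficiency with TMM (adjusted p 0.0718 to 0.381). By library sizes alone, *psbL* RNA was called higher (0.91, edgeR adjusted p = 5.1e-07) and its translation efficiency lower (−1.08, edgeR adjusted p = 0.00128). On the other flank of the deletion lies *petA*, the gene of cytochrome *f*, whose footprint change was −0.20 ± 0.18 (SE) and whose RNA change was 0.08 ± 0.14 (SE), neither past the threshold with TMM. By library sizes alone, *petA* RNA was called higher (0.72, edgeR adjusted p = 3.8e-06) and its translation efficiency lower (−0.82, edgeR adjusted p = 0.00459).

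**Figure D1:**
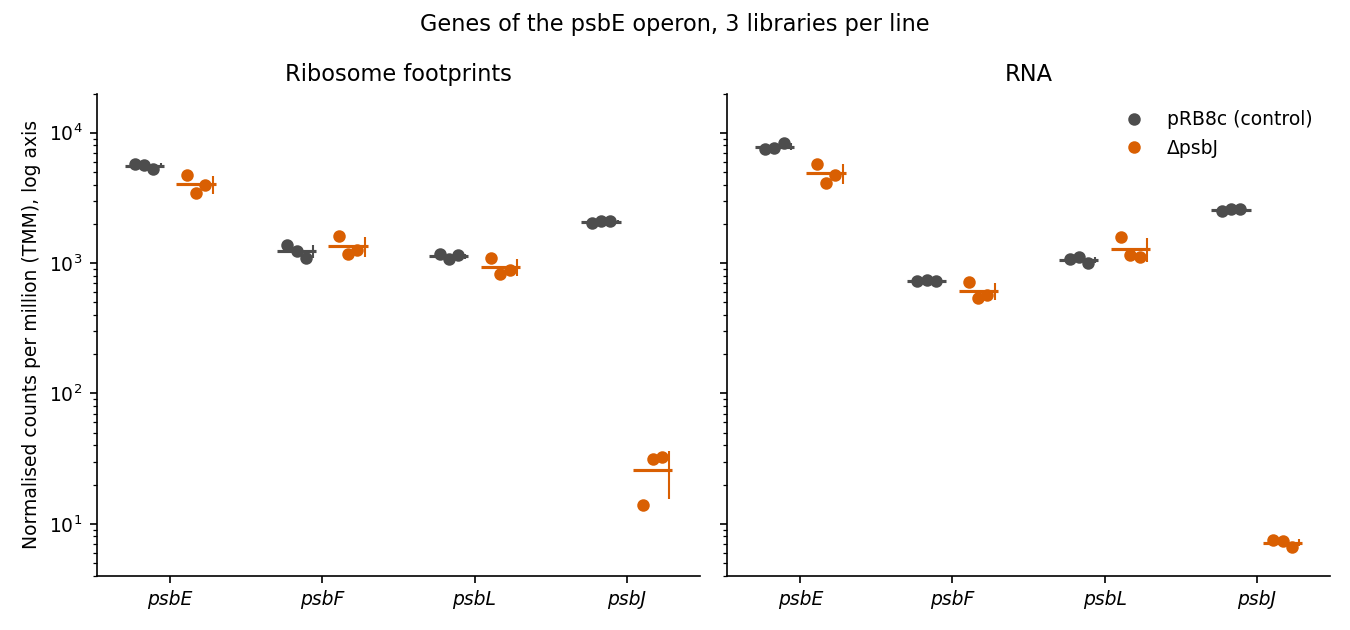
Normalised CPM (TMM, log axis) of *psbE*, *psbF*, *psbL* and *psbJ* in ribosome footprints (left) and RNA (right). Points are the 3 libraries of pRB8c (grey) and of Δ*psbJ* (orange), horizontal bars the means and vertical bars the SD. *psbJ* drops from over 2014 to at most 32.3 footprint CPM, while the other 3 genes stay within a fold change of 1.37 in footprints.

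*psbA*, which encodes D1, the reaction centre protein that turns over fastest in the light, had a lower transcript level and a higher translation efficiency in the mutant. *psbA* RNA was 312461, 311319 and 410311 in pRB8c and 185594, 138112 and 159540 in Δ*psbJ*. All mutant libraries lay below all controls, and *psbA* RNA fell by 1.10 on the log2 scale (SE 0.15, edgeR adjusted p = 6.8e-12), and by 0.45 with library sizes alone (adjusted p = 0.000321). Footprints were 115569, 216291 and 171073 in pRB8c and 219888, 285460 and 262193 in the mutant. The lowest mutant library stood just above the highest control, and the log2 fold change of 0.61 ± 0.21 (SE) did not pass the threshold of 0.01 (edgeR adjusted p = 0.0471), but did with library sizes alone (0.73, adjusted p = 0.00445). As a share of all footprints, *psbA* took 22.4% to 29.8% in the mutant and 11.4% to 19.6% in the control (exact permutation p = 0.1, the smallest possible). Translation efficiency rose by 1.71 on the log2 scale (SE 0.28), which is 3.27-fold (edgeR adjusted p = 0.00017), and stayed past the threshold in each of the 6 fits that left out 1 replicate (log2 fold change 1.52 to 2.04). In the fit of all 10 lines, the calls for *psbA* RNA and *psbA* translation efficiency were both lost. Against RB70, a control line whose RNA-seq counts are uncertain, *psbA* RNA changed by 0.83 and its translation efficiency by −0.33, neither called.

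*psbB*, which encodes the CP47 antenna, was the core gene whose translation output fell. Its footprints were 62158, 59467 and 62034 in pRB8c and 24365, 8284 and 16926 in Δ*psbJ*. The controls lay within a narrow band, whereas the mutant libraries were widely spread and all lay far below it. The decrease of 1.89 on the log2 scale (SE 0.30), a 3.70-fold lower value, passed the test (edgeR adjusted p = 0.0017). It did so in 4 of the 6 fits that left out a replicate, and the adjusted p rose to at most 0.0220 without pRB8c replicate 2 or 3, with a log2 fold change between −2.28 and −1.57 throughout. The call was also lost in the fit of all 10 lines (−1.89, adjusted p = 0.0364) and with RB70, another control line of the series, in place of pRB8c (−1.10, adjusted p = 0.0468). It was kept, with a change past 4-fold, with limma on log2(RPKM + 1) (−2.01, limma adjusted p = 5.7e-05). The same held with the replicate number as a block (−2.02, edgeR adjusted p = 1.5e-16). *psbB* RNA was 74470, 79688 and 83014 in pRB8c and 39872, 31962 and 38578 in the mutant, again without overlap. It fell by 1.10 (SE 0.12, edgeR adjusted p = 2e-17), and by 0.46 with library sizes alone (adjusted p = 1.2e-05). The change in translation efficiency of −0.79 ± 0.34 (SE) did not pass the threshold (edgeR adjusted p = 0.0718), whereas with library sizes alone it was −1.33 and called lower (adjusted p = 0.00163).

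*psbD* and *psbC*, which overlap on the chromosome and encode D2 and CP43, showed no called change in translation output. *psbD* footprints were 43937, 52412 and 44091 in pRB8c and 43922, 64855 and 47402 in Δ*psbJ*, which overlap (log2 fold change 0.15 ± 0.18 SE, edgeR adjusted p = 0.531). *psbC* footprints were 57988, 64613 and 63748 in the control and 68724, 88829 and 80949 in the mutant, higher in all 3 libraries but not past the threshold (0.36 ± 0.16 SE, edgeR adjusted p = 0.104). *psbC* RNA, at 75672, 89942 and 83166 against 62803, 66743 and 63348, fell by 0.37 with TMM (SE 0.12, edgeR adjusted p = 0.00375), lost that call in 3 of the 6 fits without a replicate (Δ*psbJ* 3, pRB8c 2 and pRB8c 3, adjusted p up to 0.0410), and turned to a called 0.29 higher with library sizes alone (adjusted p = 0.00617). No direction can thus be given for *psbC* RNA. Its translation efficiency was 0.72 ± 0.18 (SE) higher on the log2 scale (edgeR adjusted p = 0.0036), a call lost without the same 3 libraries (adjusted p up to 0.0667) and with library sizes alone (0.18, adjusted p = 0.412). Of the 4 core genes, 0 rose and 1 fell in footprints (median log2 fold change 0.25), 0 rose and 3 fell in RNA (median −0.73), and 2 rose and 0 fell in translation efficiency (median 0.58), all with TMM. With library sizes alone, *psbA* rose and *psbB* fell in footprints, *psbC* and *psbD* rose and *psbA* and *psbB* fell in RNA, and *psbA* rose and *psbB* fell in translation efficiency. Over all 77 genes, the shares called higher and lower were 7.79% and 6.49% in footprints, 33.8% and 26% in RNA, and 13% and 16.9% in translation efficiency.

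**Figure D2:**
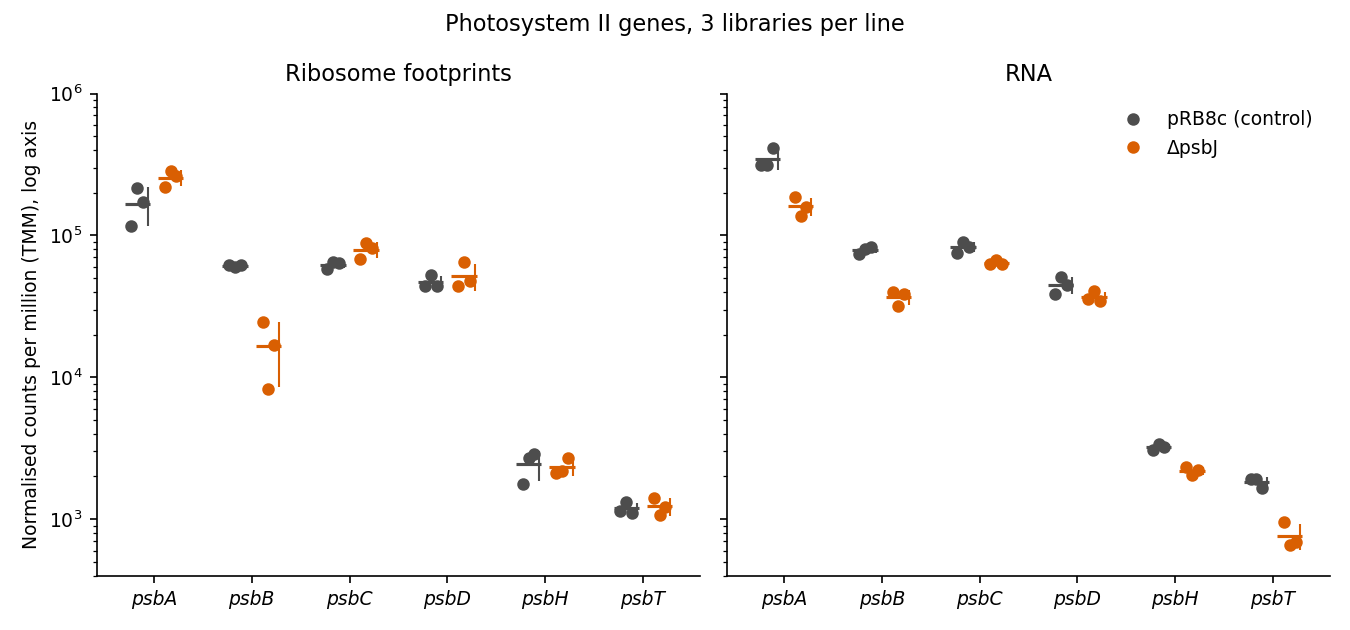
Normalised CPM (TMM, log axis) of the 4 core genes of PSII and of *psbH* and *psbT* in footprints (left) and RNA (right). Points are the 3 libraries of pRB8c (grey) and Δ*psbJ* (orange), horizontal bars the means and vertical bars the SD. *psbB* is lower in both panels, *psbA* is higher in footprints and lower in RNA, and *psbT* is lower in RNA alone.

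*psbB* heads the operon *psbB*-*psbT*-*psbH*-*petB*-*petD*, whose genes encode small PSII subunits (*psbT*, *psbH*) and the cytochrome *b*6 and subunit IV of the cytochrome *b*6*f* complex (*petB*, *petD*). With TMM, 0 of its 5 genes rose and 4 fell in RNA (median −0.56), against 33.8% and 26% of all genes. In footprints *psbB* alone fell (median 0.01), against 6.49% of all genes. *psbT* had the steepest decrease in RNA after *psbJ*. Its RNA was 1921, 1934 and 1646 in pRB8c and 951, 659 and 688 in Δ*psbJ*, a decrease of 1.26 on the log2 scale (SE 0.15, edgeR adjusted p = 9.5e-14) that was 0.62 with library sizes alone and still called (adjusted p = 0.000405). *psbT* footprints overlapped, with 1138, 1327 and 1114 against 1404, 1063 and 1227 (0.05 ± 0.18 SE on the log2 scale, edgeR adjusted p = 0.854). *psbT* translation efficiency was 1.31 ± 0.24 (SE) higher (edgeR adjusted p = 0.000696), in each of the 6 fits without a replicate past the threshold, but not with library sizes alone (0.78, adjusted p = 0.0112). Against RB70 the *psbT* value was −0.058, not called. *petD* translation efficiency was 0.79 ± 0.19 (SE) higher (adjusted p = 0.00289), a call lost in 4 of those 6 fits, namely without Δ*psbJ* replicate 2 or 3 or pRB8c replicate 2 or 3 (adjusted p up to 0.0317), and with library sizes alone (0.25, adjusted p = 0.277). The RNA of *psbH* and *petD* fell by 0.56 and 0.42 with TMM but was 0.09 and 0.23 higher, not called, with library sizes alone.

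Of 7 small PSII genes outside the *psbE* operon, *psbN* counted among them, 1 rose and 5 fell in RNA with TMM (median −0.72 against 0.19 for all genes), and 0 passed the test in footprints (median −0.02 against 0.12). Over all genes 33.8% rose and 26% fell in RNA, and 7.79% rose and 6.49% fell in footprints. With library sizes alone *psbT* was the one that fell in RNA, and *psbZ* was called higher in footprints (0.71, adjusted p = 0.00445) and in RNA (0.97, adjusted p = 3.0e-10). *psbI*, a small subunit beside D1, was the one that rose in RNA with TMM, from 267, 304 and 244 in pRB8c to 596, 468 and 469 in Δ*psbJ* (log2 fold change 0.91 ± 0.19 SE, edgeR adjusted p = 8.2e-06). *psbI* footprints, at 1304, 1489 and 1612 against 1454, 1244 and 1635, overlapped fully, and its translation efficiency fell by 0.93 (SE 0.24, adjusted p = 0.0043), a call kept in 1 of the 6 fits without a replicate, that without Δ*psbJ* replicate 3 (adjusted p up to 0.0288 in the others). *psbK*, *psbM* and *psbH* RNA fell with TMM by 0.56 to 0.72 and were not called with library sizes alone (log2 fold change −0.09 to 0.09). *psbN*, whose product takes part in PSII assembly, lies antisense to this operon between *psbT* and *psbH*, and without knowledge of the strand its RNA decrease of 1.10 (SE 0.18, edgeR adjusted p = 2.2e-08, and 0.43 with library sizes alone, adjusted p = 0.0409, not called) cannot be told apart from that of the operon.

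Across all genes, footprints were higher in Δ*psbJ* for 6 genes and lower for 5, *psbJ* included. At an unadjusted p of 0.05, 32 genes differed in footprints, and in 21 genes all mutant libraries lay above all controls and in 13 below. The calls in footprints leaned on the number of libraries: without pRB8c replicate 2, or without pRB8c replicate 3, *psbJ* alone was called (0 higher, 1 lower), and without pRB8c replicate 1 the counts were 2 higher and 2 lower. Leaving out Δ*psbJ* replicate 1, 2 or 3 gave 8 higher and 10 lower, 3 higher and 5 lower, and 2 higher and 6 lower. The direction of each of the 11 called genes was the same in each of the 6 fits.

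RNA was higher for 26 genes and lower for 20, and 55 genes had an unadjusted p of 0.05 or less. Of these 46 calls, 36 were made in each of the 6 fits without a replicate. The other 10 (*psbC*, *psbK*, *psaB*, *ndhD*, *atpI*, *rps3*, *rps12*, *rpl14*, *ycf4* and *ycf10*) were lost without at least 1 library, 9 of them without pRB8c replicate 3 (adjusted p up to 0.0574). With library sizes alone, 53 genes were higher and 6 lower, in place of 26 and 20. The 26 genes called higher were called higher under both scalings, whereas of the 20 called lower 6 were called so under both: *psbJ*, *psbA*, *psbB*, *psbT*, *petN* and *ccsA*. The sign turned for *psbC*, *psbH*, *petD* and *psaB*. Translation efficiency was higher for 10 genes (*psbJ* residue included) and lower for 13 with TMM, and 2 and 33 with library sizes alone, in which the 13 lower genes were all still called and 2 of the 10 higher ones. Of these 23 calls, 8 were made in each of the 6 fits without a replicate (*psbJ*, *psbA*, *psbT*, *petN*, *rps18*, *ndhC*, *ndhJ* and *rpoB*).

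**Figure D3:**
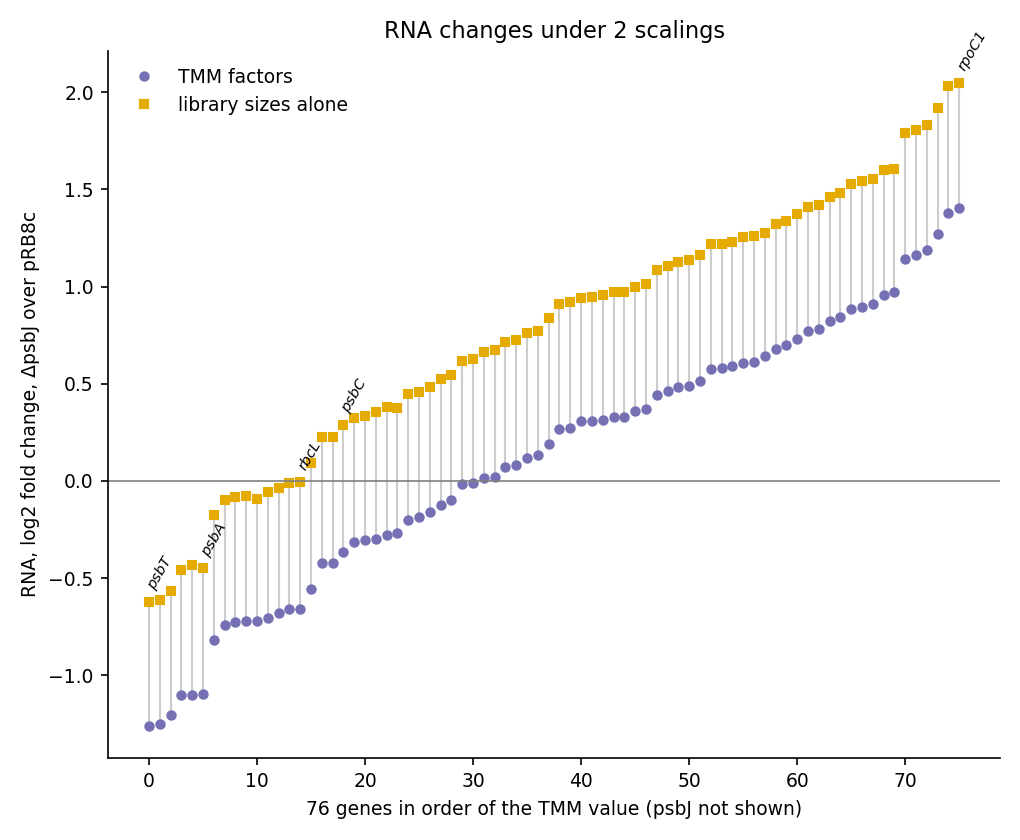
RNA log2 fold changes (Δ*psbJ* over pRB8c) of the 76 genes other than *psbJ*, in the order of the TMM value, with TMM factors (circles) and with library sizes alone (squares), joined by a line for each gene. The squares lie above the circles throughout, with a median of 0.84 against 0.19, so that the genes at the left end stay below 0 under both scalings and *psbC* does not.

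Changes in footprints and in RNA ran together only weakly. Over the 76 genes without *psbJ*, the log2 fold changes correlated with Pearson's r = 0.25 and Spearman's rho = 0.22, as a description across genes that share libraries. Among the genes called in either readout with TMM, 2 were higher in both (*ycf4* among them), 3 were lower in both (*psbJ*, *psbB* and *psaA*), and 0 were called in opposite directions. Scaled by library sizes alone, *psbA* was called higher in footprints and lower in RNA. *ndhA*, *ndhG* and *ndhJ* were called lower in footprints and higher in RNA under that scaling. With TMM, the RNA was higher without a call in footprints for 24 genes, 10 of which had a lower translation efficiency, and it was lower without a call in footprints for 17 genes, 7 of which had a higher one. Translation efficiency sets the footprint change against the RNA change of the same libraries. Its direction in genes picked this way was thus largely fixed beforehand. The spread of the log2 fold changes (SD over 76 genes) was 0.56 in footprints and 0.69 in RNA.

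**Figure D4:**
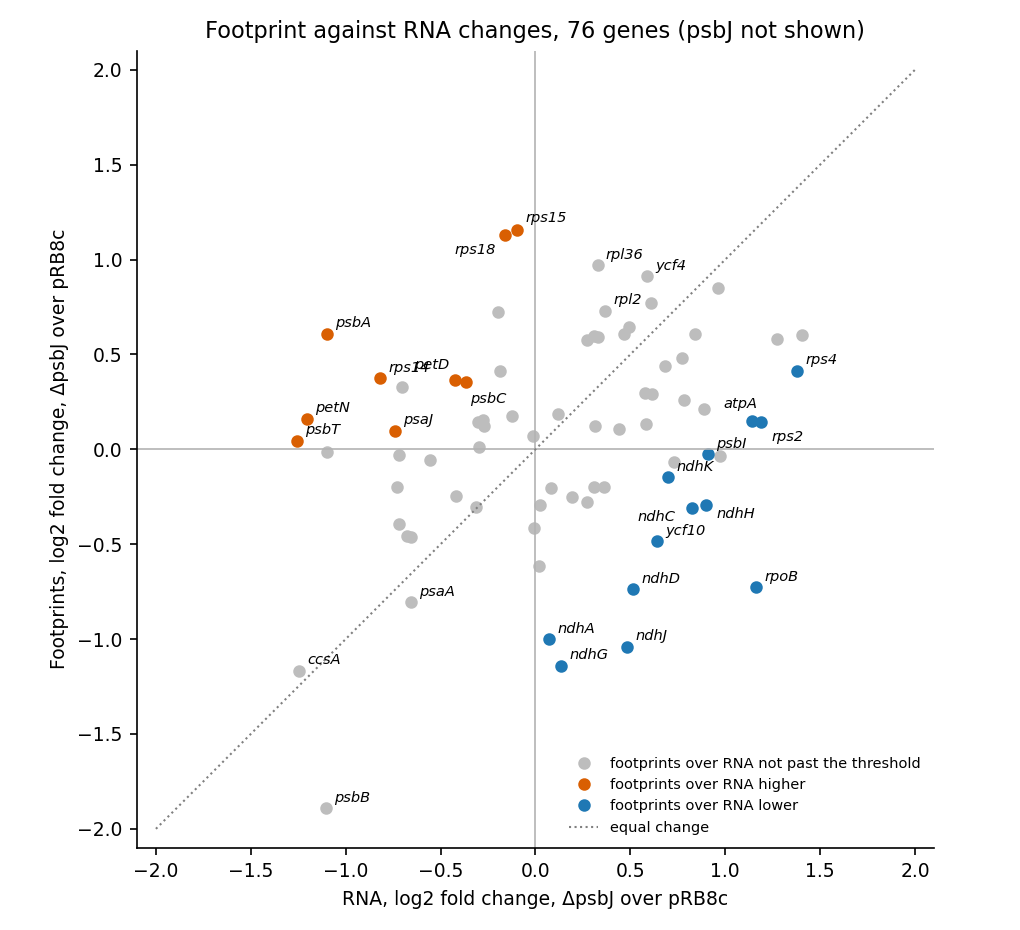
Log2 fold change (Δ*psbJ* over pRB8c) in footprints (vertical) against RNA (horizontal) for 76 genes, 1 point per gene, with the dotted line marking equal change. Genes with a higher translation efficiency (orange, among them *psbA* at 1.71) lie to the upper left and those with a lower one (blue, among them *rpoB* at −1.89) to the lower right, and *psbB* lies lowest.

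Photosystem I (PSI) genes fell in RNA and, for *psaA*, in translation output. *psaA* and *psaB* encode the reaction centre heterodimer of PSI. *psaA* footprints were 86592, 78109 and 82634 in pRB8c and 47567, 49634 and 44411 in Δ*psbJ*, with a wide gap between the groups. They fell by 0.80 on the log2 scale (SE 0.15), or 1.75-fold (edgeR adjusted p = 0.00226), and the call was lost without Δ*psbJ* replicate 3 or any one of the 3 controls (adjusted p up to 0.0224, log2 fold change −0.84 to −0.77). *psaB* footprints, at 77168, 73471 and 72320 against 60541, 66698 and 60823, were lower in each mutant library but not past the threshold (−0.25 ± 0.14 SE, adjusted p = 0.224). RNA fell for 4 of the 5 PSI subunit genes with TMM (*psaA*, *psaB*, *psaC* and *psaJ*, −0.42 to −0.74), against 26% of all genes. It fell for 0 of the 5 with library sizes alone, where *psaA* stood at −0.01. *psaJ*, a small subunit, was the PSI gene whose translation efficiency passed the threshold with TMM (0.84 ± 0.24 SE higher, adjusted p = 0.00955), and it did so neither in any of the 6 fits without a replicate nor with library sizes alone (0.31, adjusted p = 0.284). *psaA* translation efficiency was −0.15 ± 0.16 (SE) with TMM, not called. By library sizes alone it was −0.69 and called lower (edgeR adjusted p = 0.00257). The sum of the 5 genes was 170795, 160440 and 168850 footprint CPM in the control and 119552, 127621 and 119070 in the mutant. Of the assembly factors of PSI, *ycf4* rose in footprints from 599, 620 and 557 to 795, 1367 and 1179 (0.91 ± 0.21 SE, edgeR adjusted p = 0.00756, up to 0.0370 in the 5 fits that lost the call, those without any replicate but Δ*psbJ* 1) and in RNA (0.59 ± 0.17 SE), and *ycf3* did not change past the threshold.

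The cytochrome *b*6*f* complex, which carries electrons from PSII to PSI, showed no called change in translation output. Of its 6 genes 0 passed the test in footprints (median 0.08, log2 fold changes −0.31 to 0.37). *petN*, a small subunit needed for a stable complex in tobacco, fell in RNA from 295, 272 and 348 in pRB8c to 167, 99.8 and 130 in Δ*psbJ*, without overlap (−1.20 ± 0.19 SE on the log2 scale, edgeR adjusted p = 4.5e-09, and −0.56 with library sizes alone, adjusted p = 0.00925). Its footprints overlapped, at 503, 669 and 577 against 686, 620 and 648. *petN* translation efficiency was higher by 1.37 ± 0.27 (SE, edgeR adjusted p = 0.00115), called in each of the 6 fits without a replicate but not with library sizes alone (0.84, adjusted p = 0.0115). Against RB70 the *petN* value was −0.52, not called. *ccsA*, which serves in the attachment of haem to *c*-type cytochromes, fell in RNA from 1952, 1792 and 1874 to 959, 627 and 780 (−1.25 ± 0.15 SE, edgeR adjusted p = 9.5e-14). Its footprints lay lower in each mutant library, at 266, 103 and 182 against 533, 307 and 407, but missed the threshold (−1.17 ± 0.32 SE, adjusted p = 0.0183).

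Genes of the NDH complex, which returns electrons from ferredoxin to plastoquinone around PSI, often rose in RNA and fell in translation efficiency. With TMM, 0 of them were called in both RNA and footprints. By library sizes alone, *ndhA*, *ndhG* and *ndhJ* were called lower in footprints (−0.89, −1.04 and −0.94) and higher in RNA (0.71, 0.77 and 1.13). Of 11 genes, 6 rose and 0 fell in RNA (median 0.51 against 0.19), 0 rose and 2 fell in footprints (median −0.31 against 0.12), and 0 rose and 7 fell in translation efficiency (median −1.07 against 0.00), all with TMM. The shares over all genes were 33.8% higher in RNA, 6.49% lower in footprints and 16.9% lower in translation efficiency. Summed over the 11 genes, footprints were 13776, 10799 and 9985 CPM in pRB8c and 9625, 7524 and 7887 in Δ*psbJ*, and RNA was 13418, 14098 and 11214 against 18520, 17094 and 18652. The mutant libraries lay below the controls in the former sum and above them in the latter.

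*ndhJ*, a subunit of the stroma-exposed arm, had 482, 379 and 440 footprint CPM in pRB8c and 222, 205 and 206 in the mutant. The groups were well separated, and the decrease of 1.04 (SE 0.20, edgeR adjusted p = 0.00276) stood beside an RNA change of 0.48 ± 0.19 (SE) that missed the threshold (adjusted p = 0.0159). Its translation efficiency fell by 1.52 (SE 0.22, edgeR adjusted p = 0.000112), in each of the 6 fits without a replicate past the threshold, whereas the footprint call was lost without any one of the 3 controls (adjusted p up to 0.0187). *ndhA*, a membrane-arm subunit, went from 1340, 1248 and 1026 footprint CPM to 788, 519 and 495, a decrease of 1.00 (SE 0.22, edgeR adjusted p = 0.00506) that was likewise lost without any one control (adjusted p up to 0.0572). *ndhG* had a footprint decrease of similar size (−1.14 ± 0.29 SE) that missed the threshold (adjusted p = 0.0115). *ndhC*, *ndhD*, *ndhG*, *ndhH* and *ndhK* also fell in translation efficiency (−0.85 to −1.27). Of these 7 genes *ndhC* and *ndhJ* kept the call in all 6 fits without a replicate, *ndhD* and *ndhH* in 4, *ndhA* and *ndhG* in 1 and *ndhK* in 0 (adjusted p up to 0.0733). Against RB70, whose RNA-seq counts are uncertain, *ndhA* translation efficiency was called higher (1.42, edgeR adjusted p = 0.00314).

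**Figure D5:**
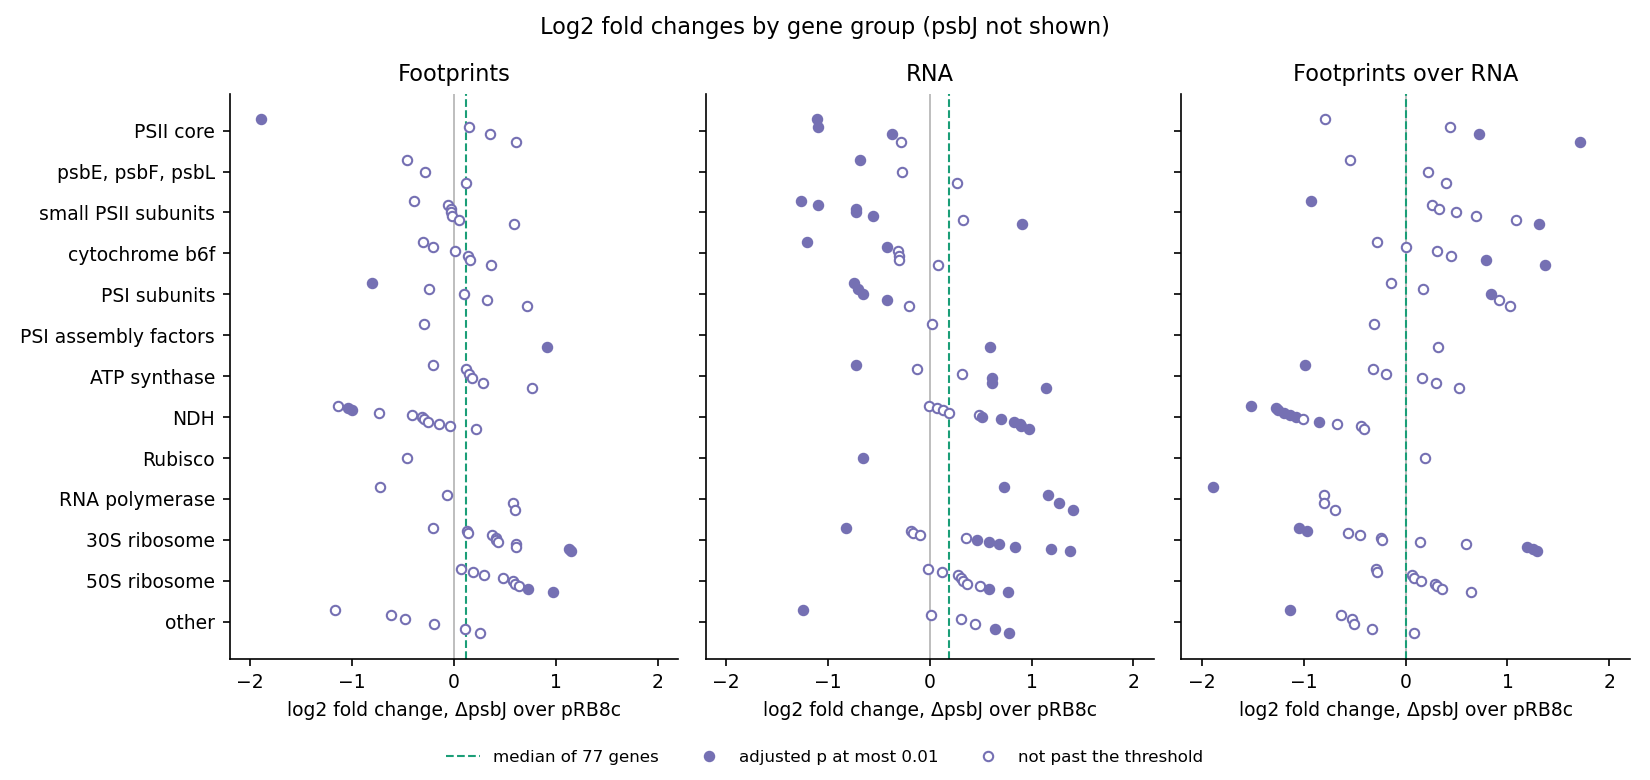
Log2 fold changes (Δ*psbJ* over pRB8c) by gene group in footprints (left), RNA (middle) and footprints over RNA (right), 1 circle per gene, filled where the edgeR adjusted p was at most 0.01, without *psbJ*. The dashed line is the median of the 77 genes (0.12, 0.19 and 0.00). RNA polymerase genes and most NDH genes lie to the right of it in RNA and to the left in footprints over RNA, and *psbB* lies farthest left in footprints.

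The genes of the plastid-encoded RNA polymerase rose in RNA, and *rpoC1* had the highest rise of the 77 genes. *rpoB*, *rpoC1* and *rpoC2*, which form an operon read by the nuclear-encoded polymerase, and *rpoA* were all 4 higher (median 1.22), against 33.8% of all genes. *rpoC1* RNA was 637, 637 and 603 in pRB8c and 1358, 1522 and 2090 in Δ*psbJ* (log2 fold change 1.41 ± 0.16 SE, 2.65-fold, edgeR adjusted p = 1.9e-15). Against RB70, whose RNA-seq counts are uncertain, *rpoC1* RNA was called lower instead (−2.88, edgeR adjusted p = 8.6e-08). *rpoC2* RNA rose by 1.27 (SE 0.14) and *rpoB* RNA by 1.16 (SE 0.15), and the mutant libraries lay above all controls for both. Footprints of 0 of the 4 genes passed the test, and *rpoB* differed from its operon partners, with 359.5, 285 and 439 footprint CPM in the control and 217, 222 and 217 in the mutant (−0.73 ± 0.22 SE, adjusted p = 0.0246), against 0.60 ± 0.30 for *rpoC1* and 0.58 ± 0.26 for *rpoC2*. Translation efficiency of *rpoB* fell by 1.89 (SE 0.29, 3.71-fold, edgeR adjusted p = 0.000112), the steepest decrease of the 77 genes, and was called in each of the 6 fits without a replicate. *accD*, the acetyl-CoA carboxylase subunit also read by the nuclear-encoded polymerase, rose in RNA by 0.78 (SE 0.17, edgeR adjusted p = 1.2e-05) with a footprint change of 0.26 ± 0.17 (SE) that did not pass the test.

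Ribosomal protein genes made up most of the increases in translation output. Of 11 genes of the small subunit 2 rose in footprints (*rps15* and *rps18*, median of the 11 genes 0.41) and of 9 of the large subunit 2 rose (*rpl36* and *rpl2*, median 0.58), while none of these genes fell. Among all genes 7.79% rose and 6.49% fell in footprints. *rps15* footprints were 1270, 1366 and 928 in pRB8c and 2024, 2951 and 2959 in Δ*psbJ* (log2 fold change 1.15 ± 0.21 SE, 2.23-fold, edgeR adjusted p = 0.00226). *rps18* footprints were 451, 422 and 395 against 687, 1050 and 1039 (1.13 ± 0.21 SE, edgeR adjusted p = 0.00226). In both genes all mutant libraries lay above the controls, with replicate 1 the lowest of them, and both calls were lost without pRB8c replicate 2 or 3 (adjusted p up to 0.0182 and 0.0189). The RNA of *rps15* and *rps18* overlapped between the lines (−0.10 ± 0.18 and −0.16 ± 0.19 SE), and their translation efficiency rose by 1.25 (SE 0.27, edgeR adjusted p = 0.00151) and 1.29 (SE 0.26, edgeR adjusted p = 0.00115). The call for *rps18* held in all 6 fits without a replicate and that for *rps15* was lost without Δ*psbJ* replicate 2 or 3 (adjusted p up to 0.0113). With library sizes alone neither was called (0.76, adjusted p = 0.0246, for *rps18* and 0.73, adjusted p = 0.0312, for *rps15*).

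*rpl36* (0.97 ± 0.20 SE) and *rpl2* (0.73 ± 0.16 SE) rose in footprints alone, and *rpl2* is counted in an inverted-repeat gene pair, which makes its counts uncertain. *rpl36* and *rpl2* were called in 2 and 1 of the 6 fits without a replicate (adjusted p up to 0.0272 and 0.0600). *rps4* and *rps2* rose most in RNA (1.38 ± 0.19 and 1.19 ± 0.19 SE), from 228, 322 and 238 to 624, 685 and 742 for *rps4*, and fell in translation efficiency by 0.96 and 1.04, which both lost without Δ*psbJ* replicate 2 or 3 or pRB8c replicate 1 or 3 (adjusted p up to 0.0502). *rps14*, which is cotranscribed with *psaA* and *psaB*, went the other way in RNA, from 8089, 8056 and 8431 to 4941, 4219 and 4761 (−0.82 ± 0.11 SE, edgeR adjusted p = 2.4e-11, and −0.17 with library sizes alone, not called). Its footprints showed no called change (0.37 ± 0.27 SE, edgeR adjusted p = 0.325). *rps14* translation efficiency was 1.19 ± 0.31 (SE) higher (edgeR adjusted p = 0.00519). That call was kept in 2 of the 6 fits without a replicate (adjusted p up to 0.0472), but not with library sizes alone (0.65, adjusted p = 0.0882).

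Of the 6 ATP synthase genes, 3 rose in RNA (*atpA*, *atpH* and *atpI*, against 33.8% of all genes) and 0 passed the test in footprints (median 0.16). *atpE* RNA fell by 0.73 with TMM but was −0.08 with library sizes alone (adjusted p = 0.55). *atpA*, the α subunit of the catalytic head, had 4096, 4617 and 3503 RNA CPM in pRB8c and 8900, 9095 and 8963 in Δ*psbJ* (log2 fold change 1.14 ± 0.11 SE, edgeR adjusted p = 3.3e-19). Its footprints overlapped, at 13862, 13240 and 13037 against 12123, 18020 and 14402 (0.15 ± 0.18 SE, adjusted p = 0.531), and its translation efficiency fell by 0.99 (SE 0.21, edgeR adjusted p = 0.00126), a call lost without Δ*psbJ* replicate 3, pRB8c replicate 1 or pRB8c replicate 3 (adjusted p up to 0.0205). In *rps2*-*atpI*-*atpH*-*atpF*-*atpA*, the operon that ends with *atpA*, 4 of 5 genes rose in RNA and 0 in footprints, against 33.8% and 7.79% of all genes. *atpI* footprints were higher in each mutant library, at 9108, 15651 and 13155 against 7925, 7815 and 6495, and missed the threshold with TMM (0.77 ± 0.21 SE, adjusted p = 0.0158). With library sizes alone they were called higher (0.89, edgeR adjusted p = 0.00184).

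*rbcL*, which encodes the large subunit of Rubisco and gave the most footprints of all genes in the control (rank 1 per length), had 435913, 425398 and 374484 footprint CPM in pRB8c and 376642, 237653 and 282196 in Δ*psbJ*. The groups overlapped and the decrease was not called (−0.46 ± 0.18 SE, edgeR adjusted p = 0.0643). Its share of the RNA reads was 35.2% ± 2.30 (SD, n = 3) in the mutant and 35.3% ± 2.77 (SD, n = 3) in the control (two-sided exact permutation p = 1), so that the called RNA decrease of 0.66 (SE 0.16, edgeR adjusted p = 7.2e-05) is a decrease relative to the other genes only (0.00 with library sizes alone).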

How the data were processed

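Ribo-seq and RNA-seq libraries of 3 Δ*psbJ* and 3 pRB8c samples were used, grouped by the submitters' labels. The authors trimmed reads with cutadapt and mapped them, with STAR 2.7.1a, first to rRNA and tRNA, then to the chloroplast, the mitochondrial and the nuclear genome. SAMtools, bedtools and FastQC are also named. For Ribo-seq the deposited values are whole-number counts per reading frame, with 10 nt left out at the lower and 30 nt at the higher coordinate, and with the last exon alone for genes with introns. The deposited RNA-seq values are estimated counts, which were rounded to whole numbers here. The authors also deposited RPKM per library, which were used only to check that they follow from the counts, and a list of read numbers and percent per mapping step, used for depth. No source used here gives the strandedness of the counting, which makes antisense *psbN* uncertain, as are genes of the inverted repeat (*ndhB*, *rps7*, *rps12*, *rpl2*, *rpl23* and *ycf2*) and overlapping genes (*psbD* and *psbC*, *atpB* and *atpE*, *ndhK* and *ndhC*, *rps3* and *rpl22*).

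The test was edgeR's quasi-likelihood test (version 4.0.16, in R 4.3.3, TMM factors within each kind of library), with p adjusted by Benjamini-Hochberg over 77 genes and called at 0.01, and separately at 4-fold, the limits of the study. Translation efficiency was the interaction of library type and line in 1 model over 12 libraries. The fit was tested on simulated data. Alternatives were other scalings, DESeq2 1.42.0, limma 3.58.1 on log2(RPKM + pseudocount) with pseudocounts of 1, 0.1 and 10, other count filters, a replicate block, RB70 as the control, all 10 lines in 1 fit, a threshold of 0.05 and each replicate left out. Replicates of a line all differed beyond counting noise. That check can find copied or split libraries but cannot show that the samples were independent. Each counted as a sample by the submitters' labels.

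Genes named are *psbJ* and its operon, the PSII core, flanking genes, the 8 highest and 8 lowest called values in each readout, and members of the gene lists that were called or lay at an end of their list. The members and lists were chosen with earlier results of these data known. Of the genes tested, 1 is counted in the totals over all genes but not reported here and is left out of the gene lists. RefSeq gene names of tobacco were used for *ycf10* (*cemA*).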

Additional observations from a re-analysis of the deposited data

How the results depend on the processing

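The decreases of *psbJ* and *psbB* and the higher translation efficiency of *psbT*, *petN* and *psbA* relative to pRB8c stood in the same direction under all scalings and tests run with that control, although library sizes alone ended the calls for *psbT* and *petN*. The fit of all 10 lines ended calls as well, those for *psbB* footprints and *psbA* translation efficiency among them. With library sizes alone, counts higher and lower were 12 and 7 in footprints, 53 and 6 in RNA (3 at least 4-fold) and 2 and 33 in footprints over RNA (2 at least 4-fold). With DESeq2 size factors 8 genes were lower in footprints. DESeq2's Wald test gave 11 lower in footprints and 16 higher in footprints over RNA. Limma on log2(RPKM + 1), and with 0.1 or 10, gave 1 higher and 2 lower in footprints (2 at least 4-fold) and 51 higher and 6 lower in RNA (3 at least 4-fold with 1 or 0.1). In footprints over RNA limma gave 2 higher, with 16 lower (3 at least 4-fold) for 1 or 0.1 and 22 lower (2 at least 4-fold) for 10. RNA of *psbC* and *psbD* reversed to 0.29 and 0.38 with library sizes alone and to 0.26 and 0.36 with limma under each pseudocount. Neither setting used TMM factors, and the part of this in the limma values was not tested. A threshold of 0.05 gave 13 higher and 10 lower in footprints. All lines in 1 fit gave 3 lower in footprints, 7 lower in RNA and 4 higher in footprints over RNA.

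The replicate numbers do not pair the samples by the labels, and same-numbered samples of the lines did not all deviate together (own-number correlations over genes 0.04 to 0.38 in footprints and 0.08 to 0.48 in RNA), although each mutant sample correlated best with the control of its own number (3 of 3 in both readouts, and 2 of 3 and 3 of 3 seen from the controls). With the replicate number as a block, *psbA* footprints were called higher (0.65, edgeR adjusted p = 0.000319), and 12 genes were higher and 11 lower in footprints (2 at least 4-fold), 26 and 20 in RNA and 13 and 14 in footprints over RNA.

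Leaving out each replicate gave 0 to 8 higher, 1 to 10 lower and 1 to 2 at least 4-fold in footprints, 19 to 29 higher and 17 to 22 lower in RNA, and 5 to 10 higher, 3 to 11 lower and 0 to 3 at least 4-fold in footprints over RNA.

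With RB70, another transplastomic control of the series, in place of pRB8c, 2 genes were higher and 5 lower in footprints. In RNA 15 were higher, 20 lower and 9 at least 4-fold changed, and in footprints over RNA 13 were higher, 3 lower and 9 at least 4-fold changed. Of the calls made against pRB8c, 2 of 11 were kept in footprints, 14 of 46 in RNA and 2 of 23 in footprints over RNA. The RB70 Ribo-seq libraries were shallow, with 160029 to 253111 reads in chloroplast reading frames. Footprints reversed for *ndhJ* (0.013) and *rpl36* (−0.093). RNA reversed for *psbA* (0.83), *psbC* (0.92), *psbD* (1.07), *psbE* (0.24), *psbN* (0.24), *ndhI* (−0.32) and *rpoC1* (−2.88). Translation efficiency reversed for *psbA* (−0.33), *psbC* (−0.28), *psbT* (−0.058), *petN* (−0.52), *ndhA* (1.42), *ndhG* (0.28) and *ycf10* (1.27). The reversed values of *psbC*, *psbD* and *rpoC1* in RNA and of *ndhA* and *ycf10* in translation efficiency were called, the others were not. The reading-frame counts of the RB70 RNA-seq libraries were 111%, 95.5% and 109% of their chloroplast reads, against 83.6% to 87.0% in the RNA-seq libraries of Δ*psbJ* and pRB8c, so that RNA and translation efficiency against RB70 are uncertain. The part of this in the reversals was not tested.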

Other observations

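Reads of rRNA and tRNA made up 21.6% to 22.8% of the Δ*psbJ* RNA-seq libraries and 29.9% to 36.0% of the pRB8c libraries (two-sided exact permutation p = 0.1, the smallest possible, n = 3 each). In Ribo-seq they were 21.5% to 29.4% and 27.1% to 40.9%, which overlap (p = 0.2, exact). Mitochondrial reads were 5.71% ± 0.16 (SD, n = 3) of the mapped RNA reads in the mutant and 5.42% ± 0.26 (SD, n = 3) in the control (exact permutation p = 0.2).

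The Ribo-seq windows listed with the counts were compared with RefSeq reading frames for 63 genes with 1 interval in both. In 22 genes on the plus strand the windows leave out 10 nt at the start codon and 30 nt at the stop codon. In 41 genes on the minus strand, *psbA*, *psbE* and *psbJ* among them, they leave out 30 nt at the start codon and 10 nt at the stop codon. The windows are the same in both lines, and whether the reads were counted in exactly these windows was not tested.

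*clpP*, a protease subunit, had 813, 652 and 747 footprint CPM in Δ*psbJ* and 1183, 1150 and 1057 in pRB8c, without overlap (log2 fold change −0.62 ± 0.17 SE, edgeR adjusted p = 0.0183, not called), with RNA at 0.02 ± 0.13 (SE). *ycf10* (*cemA*), an envelope protein gene beside *petA*, rose in RNA by 0.64 (SE 0.18, edgeR adjusted p = 0.000831) and fell in translation efficiency by 1.13 (SE 0.28, edgeR adjusted p = 0.00344), and its footprints overlapped between the lines. The call in translation efficiency was kept in 2 of the 6 fits without a replicate (adjusted p up to 0.0201). Against RB70 the value was 1.27 and called higher (edgeR adjusted p = 0.00657).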
